A study of Mus musculus with 2 samples.

Results

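The genes described here are 7 CC chemokine ligands (Ccl2, Ccl3, Ccl4, Ccl5, Ccl7, Ccl8 and Ccl12) and 2 CC chemokine receptors (Ccr1 and Ccr2). They were chosen by name and are 9 of the 55401 genes in the count tables. Each had at least 1 UMI in kept cells of both libraries, where a UMI (unique molecular identifier) counts 1 captured RNA molecule. The tables held single-cell RNA counts of 2 libraries from brains of C57BL/6J mice aged 10 weeks. The metastasis library was a pool of 3 brains from mice injected intracranially with B16/F10-BrM, a brain-metastatic derivative of a mouse melanoma line, and the naive library was a pool of 3 brains of naive mice. The time between injection and dissociation was not given in the sources used here. Both pools had been enriched with beads against ACSA-2, a surface antigen of astrocytes.

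Each group was thus 1 pooled library, so the variation among mice is unknown and no p-value is given. The intervals in the text cover 95% of counting error and nothing else. A barcode was taken as a cell from 1000 UMIs and 500 genes upward, unless over 20% of its UMIs were mitochondrial, and called doublets were then removed. This left 13100 cells with 67836482 UMIs in metastasis and 13140 cells with 48074286 UMIs in naive, with medians of 2823 and 2765 UMIs per cell. Barcodes with 100 to 300 UMIs, too few for a cell, were summed (10901989 UMIs in metastasis, 10697779 in naive) as a measure of free RNA, the RNA that leaks from broken cells into every droplet. Of the kept barcodes, 48 had the same sequence in both libraries, 0.366% of metastasis cells and 0.365% of naive cells. Astrocyte-like cells were 2.52% of metastasis cells and 7.70% of naive cells in spite of the enrichment. The submitters exchanged the titles of both libraries after deposit, and the groups follow the present titles. Pmel, a pigment cell gene that marks melanoma, had 174742 UMIs in the library now titled metastasis and 4774 UMIs in the one now titled naive. Melanoma-like cells numbered 697 in metastasis and 19 in naive, and no shared barcode was a naive melanoma-like or macrophage/monocyte-like cell.

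CC chemokines are small secreted proteins named for a pair of adjacent cysteines. They act through receptors that couple to inhibitory G proteins and direct the movement of leukocytes. In the brain, microglia and macrophages make Ccl3 and Ccl4, and Ccl3 binds Ccr1. Ccl2, Ccl7 and Ccl12 bind Ccr2 and are known for drawing Ccr2+ monocytes out of the blood, and mouse Ccl8 is an agonist of Ccr8. Ccl5 is made by activated T cells and NK cells, among others, and binds Ccr1 and Ccr3, among others.

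The 9 genes lie in 3 blocks of the mouse genome, given here in GRCm38 coordinates from GENCODE M21. The first block holds Ccl2 (chr11:82035571-82037453), Ccl7 (chr11:82045712-82047525), Ccl12 (chr11:82101845-82103400) and Ccl8 (chr11:82115185-82116799), all on the plus strand. It spans 81.2 kb with 5 protein-coding genes, the other being Ccl11. The second block lies on the same chromosome and holds Ccl5 (chr11:83525778-83530518, minus), Ccl3 (chr11:83647844-83649355, minus) and Ccl4 (chr11:83662584-83664683, plus). It spans 138.9 kb and also holds Ccl9 and Ccl6. Both receptor genes lie on chromosome 9, Ccr1 at chr9:123962124-123968692 on the minus strand and Ccr2 at chr9:124101950-124113557 on the plus strand, with Ccr3 between them. All 9 genes are annotated as protein-coding, and each value below is the gene's whole count as deposited, with no split into exons, introns or UTRs.

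The ligands were counted as separate genes, so it matters how alike they are in sequence. The coding stretch around the cysteine pair, read from GENCODE M21 transcripts 5′ to 3′, is shown for 6 ligands, with the codons of both cysteines in capitals.
Ccl2: ccactcaccTGCTGCtactcattc
Ccl7: gcatccacaTGCTGCtatgtcaag
Ccl12: ccagtcacgTGCTGTtataatgtt
Ccl8: ccagtcaccTGCTGCtttcatgta
Ccl4: cccacttccTGCTGTttctcttac
Ccl5: accactcccTGCTGCtttgcctac
The coding sequences were most alike between Ccl3 and Ccl4 (68.1% identity over 282 aligned columns) and between Ccl7 and Ccl8 (64.7% over 300 columns). Ccl2 and Ccl5 were least alike, at 38.5% over 454 columns with gaps counted, and Ccl2 has the longer coding sequence. No stretch of 31 bases was shared between any members, so a read that matches 1 ligand over that length matches no other ligand here. Ccl5, Ccr1 and Ccr2 shared such stretches with other genes outside the 9: Ccl5 had 4 with Ftx, 4 with Gm38020 and 2 with Ptgr2, Ccr1 had 17 with Ccr3 and 1 with Ccr1l1, and Ccr2 had more. Reads from those stretches could be split between genes, which makes the values of these 3 members less certain, those of Ccr2 most.

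The 250 bases before the start were at hand for 5 members (Ccl3, Ccl8, Ccl12, Ccr1 and Ccr2; RefSeq, GRCm38.p6). The letters TATAA lay within 40 bases before the start, on the gene's own strand, in 3 of these 5 (Ccl12, Ccl8 and Ccl3) and in 4.23% of all 32851 promoter windows; over 250 bases and both strands, 4 of the 5 (Ccr2 as well) and 22.8% of windows held them. Counted from the RefSeq start, TATAA began at base -31 in Ccl12, -32 in Ccl8 and -11 in Ccl3. The RefSeq start of Ccl3 lies upstream of its GENCODE start (chr11:83649355), so that distance depends on the start used. The last 100 bases before the RefSeq start are shown for these 3 ligands, with TATAA in capitals.
Ccl12 (chr11:82101745-82101844, plus): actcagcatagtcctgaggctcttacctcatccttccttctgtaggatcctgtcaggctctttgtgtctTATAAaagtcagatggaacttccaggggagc
Ccl8 (chr11:82115085-82115184, plus): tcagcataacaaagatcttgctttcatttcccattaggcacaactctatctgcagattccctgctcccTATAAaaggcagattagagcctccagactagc
Ccl3 (chr11:83649379-83649478, minus): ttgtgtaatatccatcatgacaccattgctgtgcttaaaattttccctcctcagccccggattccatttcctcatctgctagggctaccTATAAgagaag
Over 250 bases on both strands, an NF-kB motif of 3 G, any 5 bases and 2 C was in Ccr1 and in 45.8% of all windows. The AP-1 letters TGANTCA (6.75% of windows) and the interferon-response motif of GAAA, any 2 bases and GAAA (2.98% of windows) were in none of the 5.

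Over all kept cells, all 9 members were at least 2-fold higher in metastasis than in naive, against 13% (2836) of the 21754 genes with at least 20 UMIs over both libraries, while 14.8% of those genes were at least 2-fold lower. Ccl2 had 10744 UMIs in metastasis against 219 in naive, or 158 and 4.56 CPM (the gene's UMIs in a group of cells, scaled to the usual common total of all UMIs of those cells), a 34.8-fold difference. Ccl8 differed most, with 6024 UMIs in metastasis against 26 in naive (88.8 and 0.541 CPM), a log2 ratio of 7.36 (interval 6.81 to 7.98). Ccl3, with 187 and 35.5 CPM, and Ccr2, with 15.6 and 2.97 CPM, had the smallest ratios, at 2.40 and 2.39. Every ligand was thus several-fold more abundant in the metastasis library, and so were both receptors. Sums over all kept cells do not tell more cells of a type from more RNA per cell, and the share of myeloid cells differed strongly. Macrophage/monocyte-like cells numbered 1302 in metastasis (9.94% of cells) and 12 in naive (0.0913%), while microglia-like cells numbered 484 and 620.

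The UMIs of the ligands lay mostly in myeloid cells in both libraries, but in different ones. Microglia-like and macrophage/monocyte-like cells together held 77.7% of the ligand UMIs in metastasis and 61.1% in naive. In metastasis the macrophage/monocyte-like cells held 67.3% of Ccl2, 70.4% of Ccl3, 75.8% of Ccl4, 75.0% of Ccl7, 87.7% of Ccl8 and 80.8% of Ccl12 UMIs. In naive the microglia-like cells held 69.1% of Ccl3 and 66.8% of Ccl4 UMIs. The naive UMIs of Ccl2 (56.6%), Ccl7 (84.6%) and Ccl12 (53.5%) were instead in cluster 0, a small mixed immune cluster that was left unnamed. Its leading genes were Igkc, Igha, S100a9 and H2-Eb1, genes of B-lineage cells, neutrophils and antigen-presenting cells, and its markers stood above the other clusters by a median log2 fold of 3.47 for the neutrophil list and 3.25 for the macrophage/monocyte list. Cluster 0 had 427 cells in metastasis and 97 in naive.

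**Figure D1:**
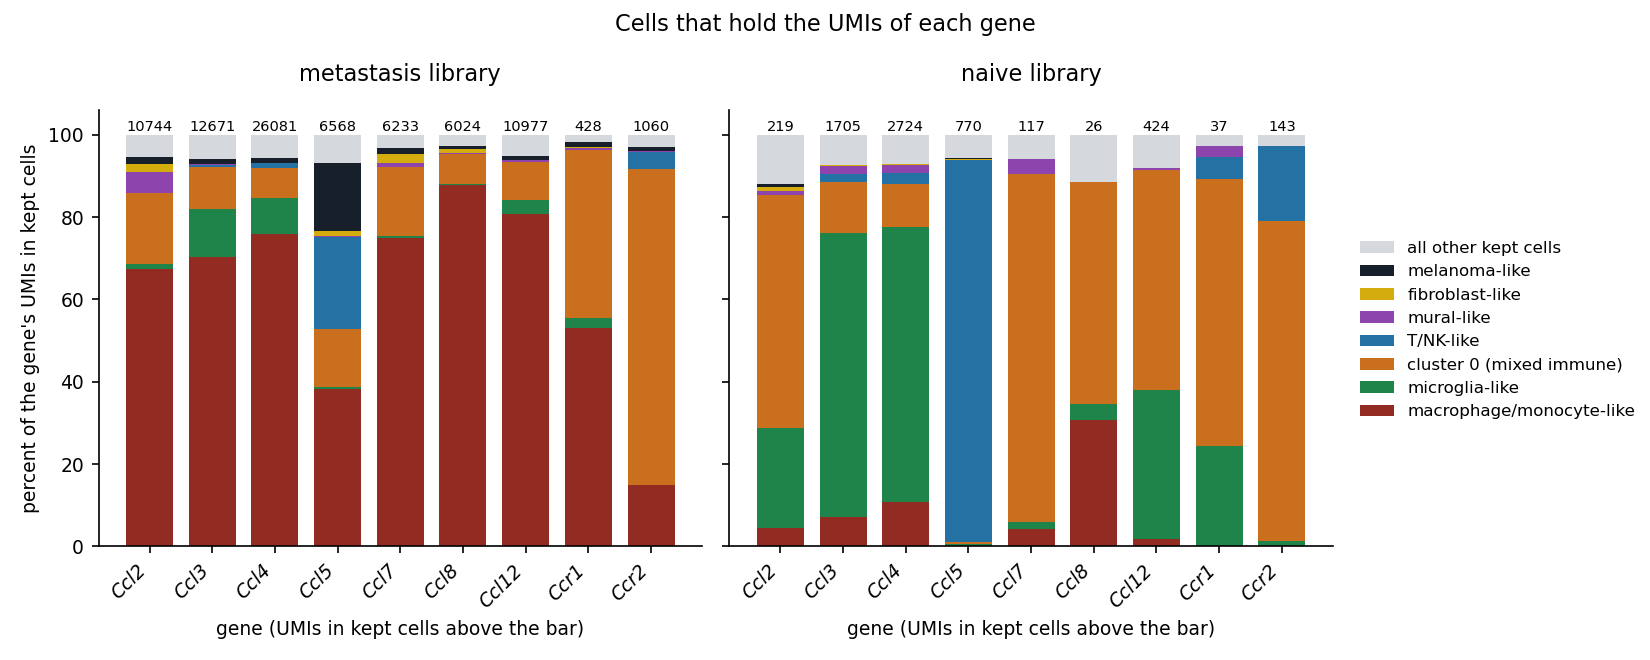
Percent of each gene's UMIs in kept cells (vertical axis) held by each class of cells, for the metastasis library (left) and the naive library (right); the number above a bar is the gene's UMI count. Macrophage/monocyte-like cells hold 67.3% to 87.7% of 6 ligands in metastasis, against 69.1% of Ccl3 in microglia-like cells and 92.9% of Ccl5 in T/NK-like cells in naive.

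Microglia-like cells had 12 of the 12 markers of their list at 2-fold or more against the mean of the other clusters. Macrophage/monocyte-like cells had 6 of 12, and the border between both classes is not sharp. All 12 markers of the microglia list were detected in microglia-like cells, at a summed level of 24191 CPM in metastasis and 29204 CPM in naive. The macrophage/monocyte list summed there to 786 and 211 CPM. In macrophage/monocyte-like cells of metastasis the macrophage/monocyte list summed to 23601 CPM, and the microglia list still reached 6812 CPM. A finer clustering split these cells into 675 macrophage/monocyte-like cells led by Lyz2, Wfdc17 and Ms4a7, and 547 cells that joined a second microglia-like cluster led by Ccl4, Ccl12 and Lpl. Another 80 joined the mixed immune cluster. The chemokine genes were left out of the genes used for clustering.

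Ccl3 and Ccl4 were well above free RNA in microglia-like cells of both libraries and higher in those of metastasis. Ccl3 had 1455 UMIs in 484 microglia-like cells of metastasis and 1178 UMIs in 620 microglia-like cells of naive, at 1724 CPM (1637 to 1815) and 1049 CPM (989.9 to 1111). Ccl4 had 2302 and 1819 UMIs there, at 2728 CPM (2617 to 2842) and 1619.8 CPM (1546 to 1696). The intervals did not overlap, and both differences stayed under 2-fold, at log2 ratios of 0.72 (0.61 to 0.83) and 0.75 (0.66 to 0.84). With every cell thinned to 1000 UMIs, 44.5% of metastasis and 29.5% of naive microglia-like cells had a UMI of Ccl3, and 50.9% and 34.7% had a UMI of Ccl4. The unthinned shares were 52.1% and 35.5% for Ccl3 and 57.6% and 40.6% for Ccl4, with median depths of 1531 and 1701.5 UMIs. In oligodendrocyte-like cells, which should lack both genes, the thinned shares were 1.87% and 0.300% for Ccl3 and 3.54% and 0.408% for Ccl4, at median depths of 2737.5 and 2967 UMIs.

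Ccl3 and Ccl4 kept nearly 1 proportion to each other in microglia-like cells. There were 0.632 UMIs of Ccl3 for each UMI of Ccl4 in metastasis and 0.648 in naive. Macrophage/monocyte-like cells of metastasis had less of both per UMI, 1104 CPM of Ccl3 and 2446 CPM of Ccl4, in the same library. With both myeloid classes together, the Ccl3 level was 1163 CPM in metastasis against 1116 CPM in naive, and its log2 ratio was 0.06 (-0.02 to 0.14). Ccl4 had 2473 and 1814 CPM, a log2 ratio of 0.45 (0.38 to 0.51). Over all kept cells the same genes differed 5.27-fold and 6.79-fold. Genes of the early stress response that dissociation can raise were also high in these cells: Fos stood at 4008 CPM in metastasis against 3322 CPM in naive microglia-like cells, and Jun 6036 and 6887 CPM. Of 10 such genes, a list added after the data were seen, Nr4a1 had the largest ratio in microglia-like cells (log2 1.197). Only Jun was lower there in metastasis (log2 ratio -0.19). Junb (0.34), Egr1 (0.38), Ier2 (0.40), Zfp36 (0.39), Fos (0.27) and Fosb (0.22) were higher, and Atf3 (0.11) and Dusp1 (0.04) less so. The part of these 10 genes in the chemokine levels was not tested.

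Of the Ccr2 ligands, Ccl12 and Ccl2 were also higher in microglia-like cells of metastasis. Ccl12 had 365 UMIs in metastasis and 154 in naive (433 and 137 CPM), a log2 ratio of 1.66 (1.38 to 1.94). It was in 22.2% and 10.1% of cells thinned to 1000 UMIs (30.6% and 15.8% unthinned), against 1.46% and 0.0988% of thinned oligodendrocyte-like cells. Ccl2 had 126 and 53 UMIs (149 and 47.2 CPM), with the same log2 ratio of 1.66 (1.19 to 2.15). In the finer clustering, where a second microglia-like cluster took in 547 cells of metastasis and 7 of naive from the macrophage/monocyte-like class, the microglia-like ratios were 3.23 for Ccl12 and 3.36 for Ccl2. The metastasis level of Ccl2 was 119% of that in free RNA, and it was not above the free RNA of barcodes with 10 to 100 UMIs. Ccl7 (22 and 2 UMIs), Ccl8 (14 and 1 UMIs) and Ccl5 (42 and 5 UMIs) lay below the free RNA of the metastasis library, at 51.1%, 21.7% and 27.1% of it. That too depends on where the class ends: the second microglia-like cluster of metastasis had 225 CPM of Ccl7, 282 CPM of Ccl8 and 332 CPM of Ccl5, against 51.0, 76.5 and 184 CPM in free RNA. Of the 6 members with at least 20 UMIs in microglia-like cells, 4 (Ccl2, Ccl5, Ccl7 and Ccl12) were at least 2-fold higher in metastasis, against 2.76% of 9141 genes higher and 2.20% lower, and 2 of these 4 (Ccl5 and Ccl7) were below free RNA.

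**Figure D2:**
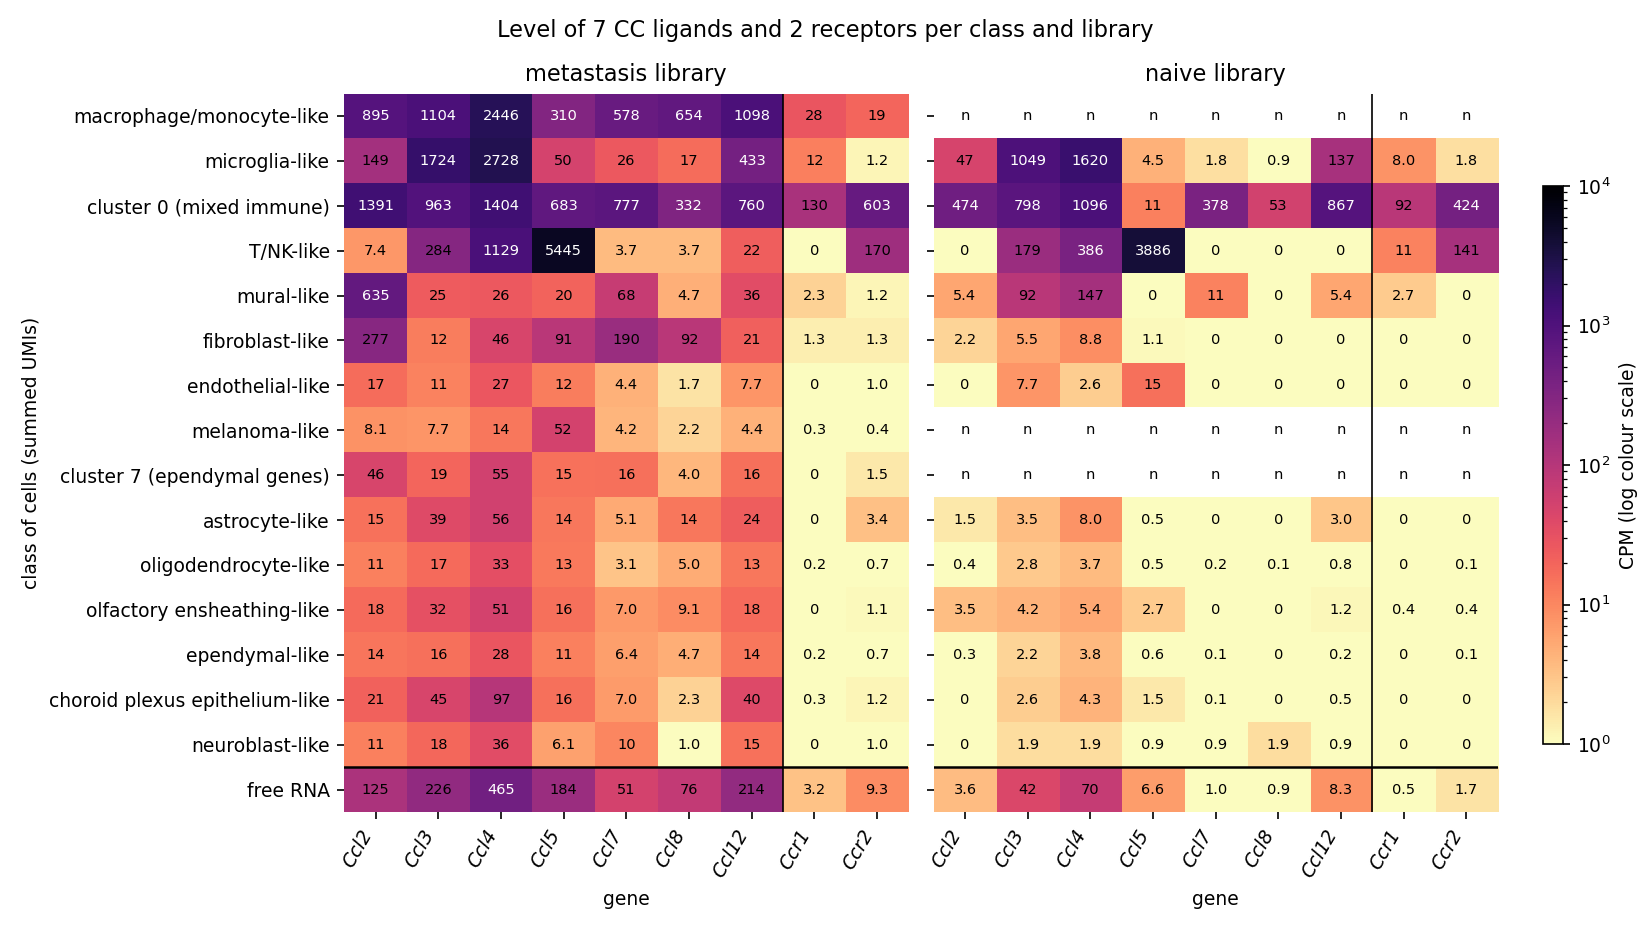
Level of each gene in CPM (colour, log scale; the number in each cell is the CPM) for classes of cells and for free RNA, in the metastasis library (left) and the naive library (right); n marks classes with under 50 naive cells. In metastasis all 9 genes are above free RNA in macrophage/monocyte-like cells and in cluster 0, and none is in astrocyte-like cells.

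Macrophage/monocyte-like cells of metastasis held every ligand above free RNA. Ccl2, the main ligand of Ccr2, had 7234 UMIs there at 895 CPM (874.6 to 916.0) and was in 52.0% of cells (29.6% thinned). Ccl7 had 4674 UMIs at 578 CPM and was in 33.1% of cells. Ccl12, a Ccr2 ligand of mice, had 8870 UMIs at 1098 CPM and was in 59.7% of cells. All 3 Ccr2 ligands were thus present in these cells. Ccl8 had 5285 UMIs at 654 CPM and was in 24.2% of cells (12.8% thinned). These 4 levels were 716%, 1134%, 513% and 855% of free RNA in the same library. Only 12 naive cells fell in the class, with 10, 5, 7 and 8 UMIs of the 4 genes, so no ratio is read there.

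Ccl8 was the most unevenly spread ligand in this class. The 10% of macrophage/monocyte-like cells with the most Ccl8 held 93.1% of its UMIs, and a single cell had 235. The same 10% share was 43.2% for Ccl3, 47.2% for Ccl4, 63.3% for Ccl12, 67.8% for Ccl2, 78.4% for Ccl7 and 83.0% for Ccl5. In the finer clustering, Ccl8 had 1614 CPM in the mixed immune cluster of metastasis, which had drawn 80 of the macrophage/monocyte-like cells. It had 416 CPM in the macrophage/monocyte-like cells and 282 CPM in the second microglia-like cluster.

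The same finer clusters of metastasis separated the ligands along the border between macrophages and microglia. Ccl2 had 1029.8 CPM in macrophage/monocyte-like cells and 579.5 CPM in the second microglia-like cluster (574 cells), and Ccl7 had 732 and 225 CPM. Ccl3 went the other way with 847 and 1582 CPM, as did Ccl4 with 1701 and 3731 CPM and Ccl12 with 716 and 1522 CPM. Microglia-like cells led by P2ry12 had 149 CPM of Ccl2, 1667 CPM of Ccl3 and 409 CPM of Ccl12. These values describe clusters within 1 library and are no test.

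**Figure D3:**
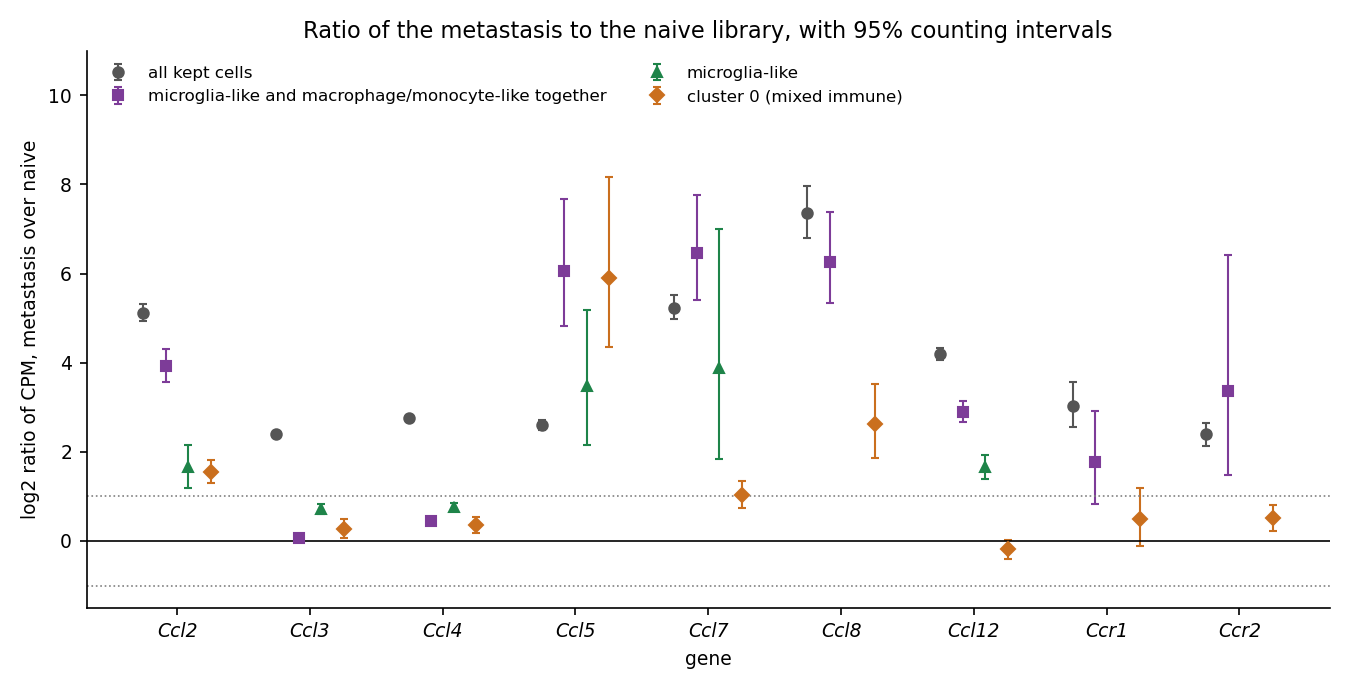
Log2 ratio of CPM, metastasis over naive, of each gene in all kept cells, in both myeloid classes together, in microglia-like cells and in cluster 0, with 95% counting intervals; dotted lines mark 2-fold, and genes with under 20 UMIs or a sum of 0 are not drawn. In the myeloid classes together Ccl3 is at 0.06 and Ccl4 at 0.45, while Ccl2, Ccl5, Ccl7 and Ccl8 lie between 3.93 and 6.45.

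With microglia-like and macrophage/monocyte-like cells summed, 7 of the 9 members were at least 2-fold higher in metastasis, against 10.8% of 12617 genes higher and 21.9% lower. Ccl2 stood at 825 CPM in metastasis against 54.1 CPM in naive (log2 ratio 3.93, 3.57 to 4.31). Ccl7 had 4696 and 7 UMIs (log2 ratio 6.45) and Ccl8 had 5299 and 9 UMIs (6.26). Without the cell with the most UMIs in each library, those 2 ratios were 8.20 and 9.36, since 5 of the 7 and 8 of the 9 naive UMIs came from 1 cell each. Ccl12 had 1035 and 138 CPM, a log2 ratio of 2.90 (2.68 to 3.14). The metastasis cells of this sum were mostly cluster 1, macrophage/monocyte-like, and the naive cells mostly cluster 14, microglia-like, so the ratios compare different makeups of the myeloid cells.

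The number of the 7 ligands with a UMI was then counted in each cell. A median macrophage/monocyte-like cell of metastasis had UMIs of 3 ligands, 69.0% had 3 or more, 30.8% had 5 or more, and 70 cells had all 7. Among microglia-like cells, 24.2% in metastasis and 7.10% in naive had 3 or more ligands. Thinned to 1000 UMIs, the mean was 2.15 ligands per macrophage/monocyte-like cell of metastasis, and 1.34 in metastasis and 0.778 in naive per microglia-like cell. Oligodendrocyte-like cells, as a measure of what free RNA adds, had thinned means of 0.103 and 0.00929 ligands, and 0.248% of those in metastasis had 3 or more unthinned. In macrophage/monocyte-like cells of metastasis, Ccl7 was detected in 53.9% of cells with Ccl2 and in 10.6% of cells without it. Ccl4 was detected in 84.8% of cells with Ccl3 and in 50.8% of those without. Cells with Ccl2 were deeper, at a median of 6579 UMIs against 4209, and the part of depth in these shares was not tested.

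**Figure D4:**
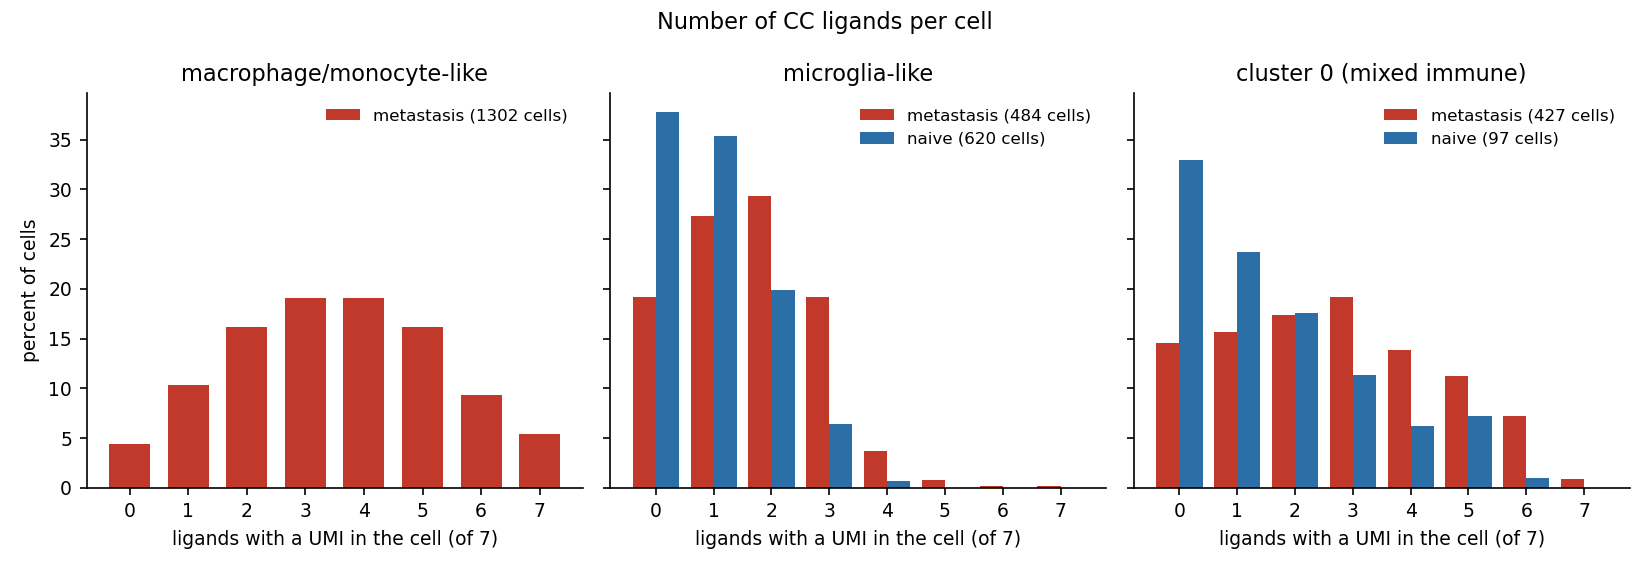
Percent of cells (vertical axis) by the number of the 7 ligands with a UMI in the cell (horizontal axis), unthinned, in macrophage/monocyte-like cells of metastasis, in microglia-like cells and in cluster 0 of both libraries. Cells with 3 or more ligands are 69.0% in the first panel, 24.2% and 7.10% in the second and 52.5% and 25.8% in the third (metastasis, then naive).

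Ccl5 had a pattern of its own, with T/NK-like cells first by level in both libraries. These cells had 1476 UMIs in metastasis and 715 in naive, at 5445 CPM (5171 to 5730) and 3886 CPM (3607 to 4182), a log2 ratio of 0.49 (0.36 to 0.62). Ccl5 was in 46.2% and 43.9% of T/NK-like cells thinned to 1000 UMIs (51.2% and 46.4% unthinned). T/NK-like cells held 22.5% of the Ccl5 UMIs of metastasis and 92.9% of those of naive. The class had 127 and 84 cells. Ccl4 was also in these cells, with 306 and 71 UMIs (1129 and 386 CPM; log2 ratio 1.55). Ccl3 reached 77 and 33 UMIs there (284 and 179 CPM, log2 ratio 0.66, 0.06 to 1.30). Free RNA had 226 and 42.3 CPM of Ccl3 and 465 and 70.5 CPM of Ccl4, so the metastasis level of Ccl3 was close to free RNA. Of the 4 members with at least 20 UMIs in T/NK-like cells, only Ccl4 was at least 2-fold higher in metastasis, against 5.89% of 4174 genes higher and 5.37% lower.

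Outside T/NK-like cells, nearly all Ccl5 was in the metastasis library. Macrophage/monocyte-like cells of metastasis had 2504 UMIs of Ccl5 (309.8 CPM), and none of the 12 naive cells had any. In both myeloid classes together there were 2546 and 5 UMIs of Ccl5 (log2 ratio 6.05, 4.83 to 7.68). In cluster 0 there were 920 and 3 (log2 ratio 5.90, 4.35 to 8.18). The 12 markers of the T/NK list summed to 7.62 CPM in the metastasis cells of both myeloid classes, under their free RNA level of 85.7 CPM. Melanoma-like cells of metastasis held 1086 UMIs of Ccl5, 16.5% of the gene's UMIs in that library, in 15.1% of 697 cells. That level was 51.6 CPM, 28.0% of free RNA, at a median depth of 29814 UMIs per cell. Their other ligands were lower against free RNA, with Ccl4 at 2.94%, and there were 3.77 UMIs of Ccl5 for each UMI of Ccl4, against 0.396 in free RNA. A single melanoma-like cell held 316 of these UMIs, and the highest 10% of cells held 96.8%. The T/NK markers summed to 1.19 CPM in melanoma-like cells.

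In cluster 0 the levels of all 9 members were above free RNA in both libraries, but naive Ccl5 rested on 3 UMIs, at 11.5 CPM with an interval (2.36 to 33.5) that included its free RNA level of 6.64 CPM. Ccl2 stood at 1391 CPM in metastasis against 474 CPM in naive (log2 ratio 1.55), Ccl8 had 332 and 53.5 CPM (2.63), and Ccl7 had 777 and 378 CPM (1.04). Ccl12 had 760.0 and 867 CPM, a log2 ratio of -0.19 (-0.40 to 0.02). In the finer clustering, where 27 metastasis and 16 naive B-like cells were split off and 80 macrophage/monocyte-like cells of metastasis joined, the mixed immune cluster had 1082 and 994.5 CPM of Ccl12 and 1614 and 61.3 CPM of Ccl8, so the sign for Ccl12 depended on the border of the cluster. Ccl3 and Ccl4 had ratios of 0.27 and 0.36, so the ligands of this cluster did not share 1 difference. The naive Ccl8 UMIs were in 2.06% of its cells, 8 of the 14 in a single cell. Of the 9 members, 4 (Ccl2, Ccl5, Ccl7 and Ccl8) were at least 2-fold higher in metastasis, against 9.01% of 7883 genes higher and 6.18% lower.

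The receptors were sparse, and cluster 0 held most of Ccr2. Ccr2, the receptor that marks inflammatory monocytes, had 813 UMIs there in metastasis and 111 in naive (603 and 424 CPM; log2 ratio 0.51, 0.22 to 0.81). In the mixed immune cluster of the finer clustering, Ccr2 had 452 and 486 CPM with overlapping intervals, so the difference was not kept there. The UMIs in cluster 0 were 76.7% and 77.6% of all Ccr2 UMIs in kept cells. Ccr2 was in 56.7% and 38.1% of cluster 0 cells (35.5% and 24.3% thinned). By level, T/NK-like cells came next with 46 and 26 UMIs (169.7 and 141 CPM; log2 ratio 0.26, -0.46 to 1.02). Macrophage/monocyte-like cells of metastasis had 157 UMIs at 19.4 CPM, 209.7% of free RNA. Microglia-like cells had 1 and 2 UMIs, at or under the floor of 3 UMIs, so no fold is given there.

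Ccr1, a receptor of myeloid cells for Ccl3, Ccl5 and Ccl7, was highest in cluster 0 too. There it had 175 UMIs in metastasis and 24 in naive (129.9 and 91.7 CPM), a log2 ratio of 0.50 (-0.12 to 1.18), and 108 and 105 CPM in the mixed immune cluster of the finer clustering. Macrophage/monocyte-like cells of metastasis had 227 UMIs at 28.1 CPM, 53.0% of the gene's UMIs. Microglia-like cells had 10 and 9 UMIs, at 11.9 and 8.01 CPM with overlapping intervals. In both myeloid classes together the receptors summed to a log2 ratio of 2.23 (1.37 to 3.24), which rests on 11 naive UMIs. With cluster 0 added to both classes, the ratio was 0.40.

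Mural and fibroblast-like cells of metastasis held ligands that were scarce in the same classes of naive. Mural-like cells, pericytes and smooth muscle cells of vessels, had 543 UMIs of Ccl2 in metastasis and 2 in naive (635 and 5.43 CPM), a log2 ratio of 6.87 (5.01 to 9.92). All 543 were in cluster 23, led by the pericyte genes Rgs5, Ndufa4l2 and Kcnj8, whose 72 naive cells had none, a difference of at least 31.8-fold against a floor of 3 UMIs over the cluster and of 25.8-fold at the lower end of its counting interval. Ccl2 was in 27.8% of the 133 metastasis cells of cluster 23, and the highest 10% of these cells held 92.8% of the UMIs, with 168 in 1 cell. Cells with Ccl2 had a median of 9242 UMIs against 2546.5 in cells without it. Ccl7 had 58 UMIs in metastasis and 4 in naive mural-like cells (67.8 and 10.9 CPM, log2 ratio 2.64). Both levels were above the free RNA of their library, which had 51.0 and 1.03 CPM of Ccl7, and the naive level rests on 4 UMIs. There were 24.7 UMIs of Ccl2 for each UMI of Ccl4 in mural-like cells of metastasis, against 0.366 in macrophage/monocyte-like cells and 0.269 in free RNA.

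Mural-like cells differed in other ways that bear on these values. Cluster 23 made up most mural-like cells of metastasis (133 of 148) and fewer of naive (72 of 123). The macrophage/monocyte markers summed to 521 CPM in its metastasis cells (7 of 12 detected) and 13.9 CPM in its naive cells (1 of 12), against 2302 and 56.2 CPM in free RNA. The fibroblast list summed to 4740 CPM in metastasis cells of cluster 23 (9 of 9 detected). In its naive cells that list summed to 1369 CPM (7 of 9). Free RNA of metastasis and naive had 373 and 492 CPM of the same list. The part of both lists in the ligand levels was not tested. Of the 5 measured members, 3 (Ccl2, Ccl7 and Ccl12) were at least 2-fold higher and 2 (Ccl3 and Ccl4) at least 2-fold lower in metastasis, against 20.5% of 7987 genes higher and 16.2% lower. Both lower values rested on single naive cells, with 29 of the 34 UMIs of Ccl3 and 44 of the 54 UMIs of Ccl4 in the cell that had the most. Without the cell with the most UMIs in each library, Ccl3 had a log2 ratio of 0.62 and Ccl4 of -0.38. The Ccl12 ratio of 2.74 rested on 31 and 2 UMIs, with 22 of the 31 in 1 cell, and was -0.14 when each cell was named from its own markers. In mural-like cells of metastasis, Ccl12, Ccl3 and Ccl4 lay below free RNA, at 36.2, 24.6 and 25.7 CPM against 214, 226 and 465 CPM.

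Fibroblast-like cells had 207 UMIs of Ccl2 in metastasis and 2 in naive (277 and 2.21 CPM), a log2 ratio of 6.97 (5.10 to 10.03). Ccl7 had 142 UMIs in metastasis and 0 in naive, a difference of at least 57.3-fold against the floor of 3 UMIs over the class and of 46.0-fold at the lower end of its counting interval. Ccl8 had 69 and 0 UMIs, at least 27.9-fold against that floor and 22.1-fold at the lower end of its interval, but 42 of the 69 were in 1 cell. Single cells likewise held 81 of the Ccl2 and 71 of the Ccl7 UMIs. These 3 ligands were above free RNA in metastasis, at 222%, 373% and 121% of it. Cluster 22, led by Dcn, Lum and Slc6a13, held 200 of the Ccl2 and 136 of the Ccl7 UMIs in 104 metastasis cells. The macrophage/monocyte markers summed to 283 CPM in those cells and 5.15 CPM in the 74 naive cells of the cluster, and their part was not tested. All 5 measured members were at least 2-fold higher in fibroblast-like cells of metastasis, against 4.55% of 9337 genes higher and 2.92% lower. In cluster 22 this held for all 4 measured members, against 7.88% of 4656 genes.

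Astrocyte-like cells, the type the enrichment aimed at, held no member above free RNA in either library. Astrocyte-like cells of metastasis had 23 UMIs of Ccl3, 33 of Ccl4, 9 of Ccl2, 14 of Ccl12, 8 each of Ccl5 and Ccl8 and 3 of Ccl7 in 330 cells. The 1012 naive cells had 7, 16, 3, 6, 1, 0 and 0 UMIs of the same genes. Summed, the ligands came to 166 CPM in metastasis against 16.4 CPM in naive (log2 ratio 3.34, 2.76 to 3.95), close to the ratio of 3.23 over all kept cells. The 7 ligands stood at 7.36% to 17.7% of the free RNA of metastasis. Ccl2 was 0.273 UMIs per UMI of Ccl4 in these cells, 0.339 in oligodendrocyte-like cells and 0.269 in free RNA. The 12 macrophage/monocyte markers summed to 308 CPM in astrocyte-like cells of metastasis (9 detected) and 10.9 CPM in those of naive (4 detected). All 3 measured members (Ccl3, Ccl4 and Ccl12) were at least 2-fold higher in metastasis, against 2.47% of 10382 genes higher and 3.43% lower, and expression by astrocyte-like cells was not detectable above free RNA at this depth.

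The other brain and tumour cells likewise held no member above free RNA in metastasis. This covers oligodendrocyte-like, ependymal-like, olfactory ensheathing-like, choroid plexus epithelium-like, neuroblast-like, endothelial-like and melanoma-like cells and cluster 7. A level below free RNA does not show that a class lacks a gene, and Ccl5 in melanoma-like cells is described above. Their ligand counts still differed between libraries. All 7 measured members were at least 2-fold higher in metastasis in oligodendrocyte-like cells, against 4.73% of genes higher and 1.34% lower, and all 7 in ependymal-like cells, against 2.46% and 1.87%. The same held for all 6 in choroid plexus epithelium-like cells (3.79% of genes higher and 0.952% lower), all 5 in olfactory ensheathing-like cells (2.67% and 1.2%) and both in neuroblast-like cells (3.40% and 3.38%). In endothelial-like cells 3 of 5 were, against 19.0% of genes higher and 17.3% lower, but Ccl2 (50 and 0 UMIs) and Ccl12 (23 and 0 UMIs) were counted against a naive sum of 0. Set against the floor of 3 UMIs, Ccl2 was 2.18-fold and Ccl12 1.003-fold higher there. Free RNA itself had 125 CPM of Ccl2 in metastasis against 3.65 CPM in naive, 226 and 42.3 CPM of Ccl3, and 465 and 70.5 CPM of Ccl4. The band of barcodes with 10 to 100 UMIs held 256869 UMIs in metastasis, with Ccr1 at 0. Against that band, Ccr1 alone counted as above free RNA in oligodendrocyte-like, ependymal-like, choroid plexus epithelium-like and melanoma-like cells of metastasis. Cluster 7, 796 cells with ependymal genes and interferon-induced genes such as Ifit3 in metastasis and 10 in naive, stood out among them in its proportions. Ccl2 was at 36.6% and Ccl7 at 31.1% of free RNA there, against 8.52% for Ccl3 and 11.8% for Ccl4, and 46 of the 150 Ccl2 UMIs were in 1 cell.

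**Figure D5:**
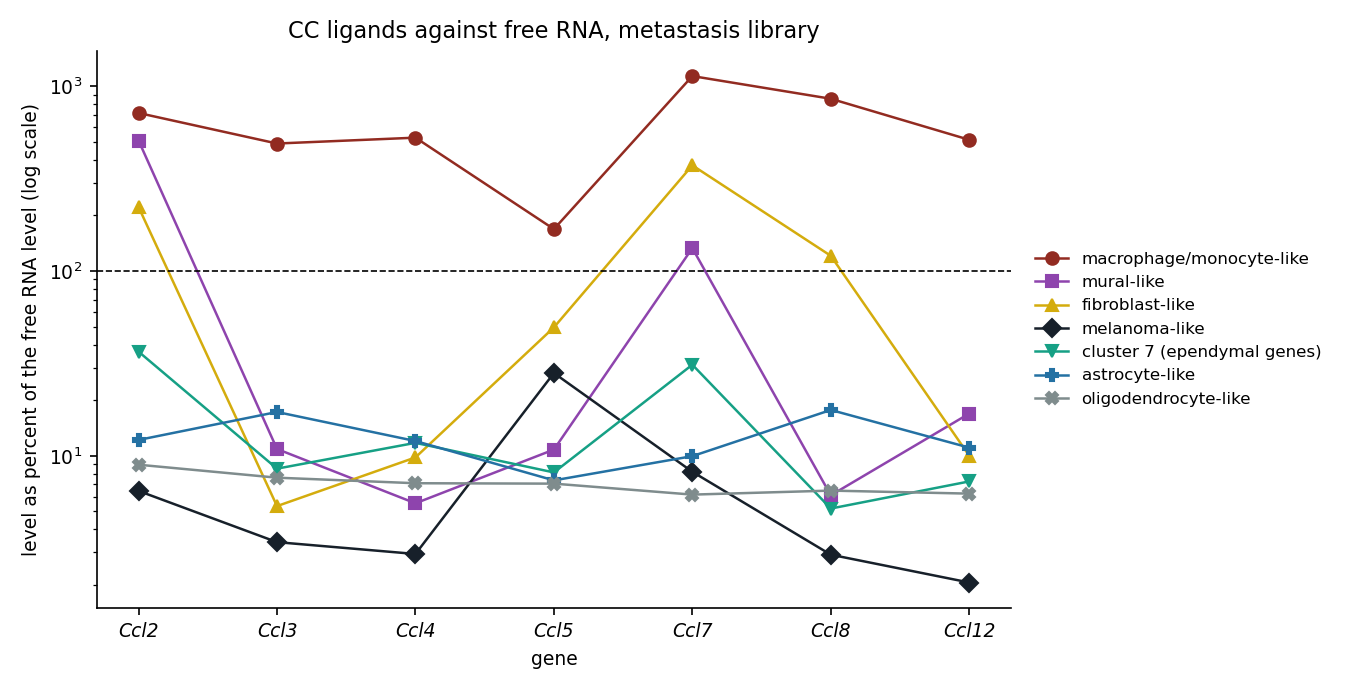
Level of each ligand as percent of its free RNA level (vertical axis, log scale; the dashed line is 100%) in 7 classes of the metastasis library. Macrophage/monocyte-like cells lie above the line for all ligands, mural-like cells for Ccl2 (508%) and Ccl7 (133%), fibroblast-like cells for Ccl2, Ccl7 and Ccl8, and astrocyte-like cells lie at 7.36% to 17.7%.

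Other genes of the pathway were counted from 4 lists. Over all kept cells, 4 of 9 measured other CC ligands were at least 2-fold higher in metastasis and 2 lower, as were 6 and 1 of 8 other CC receptors and decoys, 18 and 1 of 32 receptor signalling genes, and 17 and 0 of 26 NF-kB and early inflammatory genes. The medians were log2 0.92, 1.80, 1.45 and 1.52, against -0.15 over all 21754 genes. Within microglia-like cells the counts were 0 of 4, 0 of 2, 0 of 29 and 2 of 24 higher, and 0 lower in every list. The medians there were 0.01, 0.19, -0.06 and 0.28, against 0.00 over all genes. Il1b, an inflammatory cytokine, stood at 109 CPM in metastasis against 8.90 CPM in naive microglia-like cells (log2 ratio 3.61), and Irf1, an interferon-induced transcription factor, had 80.6 and 40.1 CPM (1.008). Cd83, an activation marker, had 474 and 247 CPM (0.94). The chemokine Ccl6 had 96.0 and 154 CPM (log2 ratio -0.68), and the decoy-like receptor Ccrl2 had 193 and 140 CPM (0.47).

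With both myeloid classes together, the lists gave 0 of 5 other ligands, 3 of 32 signalling genes and 4 of 26 NF-kB genes higher, against 10.8% of all genes higher and 21.9% lower. Lower by at least 2-fold were the ligand Ccl9 (49.6 CPM in metastasis and 105 CPM in naive), 3 signalling genes and 2 NF-kB genes. The signalling genes with the largest ratios were Rgs18 and Itgal, with 95 and 192 UMIs in metastasis and 0 in naive, and Elmo1, with 104 and 361 CPM. Rgs18 dampens G protein signals, Itgal is an integrin of leukocyte adhesion, and Elmo1 acts in cell migration. Ptgs2, Il1b and Tnfaip2 led the NF-kB list with log2 ratios of 3.46, 3.41 and 2.90. In T/NK-like cells 1 of 19 signalling genes, Elmo1, was higher (144 and 38.0 CPM). In mural-like cells the single measured other ligand, the eotaxin Ccl11, had 62 and 2 UMIs (log2 ratio 3.74), and its ratio was 2.44 in cluster 23 alone. In fibroblast-like cells 7 of 15 NF-kB genes were higher and 0 lower, against 4.55% of all genes higher and 2.92% lower.

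The genes whose levels moved most like each member were taken over 22 points, 11 classes in each library, from 14989 candidates by Pearson correlation of log2(CPM + 10). The points share libraries and free RNA, so the values are descriptions. Ccl3 was most like Tyrobp (0.97), Plek and Lat2, and Ccl4 most like Tyrobp (0.98), Rgs1 and Fcer1g, genes of myeloid cells. Ccl12 was most like C1qa (0.96), C1qc and Clec7a. Ccl2 was most like the acute-phase gene Saa3 (0.87), then Olfml2b and Clec4n, and Ccl7 most like Amdhd1 (0.81), Clec4n and Pla1a. Ccl8 was most like Hpse (0.93), C2 and Sectm1a, and Ccl5 most like AI662270 (0.97), Nlrc5 and Oas3. Ccr1 was most like Gm28417 (0.94), Cd79b and Egr2, and Ccr2 most like Nkg7 (0.998), Lat and Itgal. The 11 classes had at least 50 cells in each library and so leave out macrophage/monocyte-like cells, and the unnamed cluster 0 was not among them. Within these classes Ccr1 had 10 and 9 UMIs in microglia-like cells and at most 4 in any other class of a library. Its likeness thus rests on few counts. Ccr2 stood above 3.39 CPM only in T/NK-like cells (169.7 and 141 CPM), so its likeness rests mainly on that class. Among the members, Ccl3 and Ccl4 were closest (0.98), then Ccl5 and Ccr2 (0.95) and Ccl2 and Ccl7 (0.89).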

How the data were processed

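The 9 members, the lists of genes and the marker lists were chosen with earlier results of these data known. The UMI counts were deposited by the authors as gene-by-barcode matrices, and all their values were whole numbers; per the submitters' processing notes they came from STARsolo and the mouse build GRCm38, and the STARsolo version is not given in the sources used here. Libraries were 10x 3' v3, made from about 10000 loaded cells per condition after removal of myelin and debris, per the labels' protocols. Fewer cells were loaded than the 13937 and 14301 barcodes of metastasis and naive that held at least 1000 UMIs. No column was left unmapped to a sample.

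Of the barcodes within the limits, 13745 and 13995, doublets were removed with the scrublet method of scanpy 1.11.5 (Python 3.11.15). Its automatic threshold marked 0 barcodes in metastasis, so the naive threshold was used for both, which removed 645 (4.69%) and 855 (6.11%). Both libraries were clustered together on 2000 variable genes without chemokine genes and Cx3cr1 (30 components, 15 neighbours, resolution 1). A cluster took the name of a marker list when the list's median log2 fold against the mean of the other clusters was at least 1. At least 3 markers also had to stand at 2-fold, and no other list could come close. Nor could another list have more genes among the cluster's 10 leading genes, a condition that left cluster 7 unnamed. These limits were set after the clusters were seen. The names were rebuilt from markers, since no annotation by the authors was used here. Pools are not tied to single mice, and each cell type in a library is 1 sample.

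Counts were summed over the cells of a class in a library and divided by all UMIs of those cells (CPM). Intervals were exact Poisson for a level, exact conditional binomial for a ratio and Clopper-Pearson for a share of cells. A ratio was called measured from 20 UMIs over both libraries and 50 cells in each, and a gene called at 2-fold. Against a sum of 0, folds used a floor of 3 UMIs per class. Shares of cells were also computed for each cell thinned to 1000 UMIs (hypergeometric), which leaves out 0 of the kept cells. All members were described; list genes were named by the 3 largest log2 ratios among those with 20 UMIs in the class. The ratio interval was tested on simulated Poisson counts with the means of all kept cells. Such counts lack the clumping of UMIs in single cells. Alternatives were other limits on barcodes, doublets kept, other resolutions, chemokine genes used in clustering, cells named by their own markers, equal weights, free RNA subtracted, other minimum counts, and, added after seeing the data, leaving out the top cell and adding cluster 0. Sequence positions and coding stretches came from GENCODE M21 and promoters from RefSeq (GRCm38.p6), where 5 of the 9 members had an entry. Some items of the lists and sequences are not reported here.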

Additional observations from a re-analysis of the deposited data

How the results depend on the processing

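The summed ligand log2 ratio (metastasis over naive) was 3.23 over all kept cells, 0.84 in microglia-like cells, -0.60 in macrophage/monocyte-like cells, 1.14 in both myeloid classes together and 3.34 in astrocyte-like cells. The macrophage/monocyte-like ratio rests on 12 naive cells, and its sign changed with the setting. With at least 2000 UMIs per barcode, the ratios were 3.96 over all kept cells, 1.004 in microglia-like cells and 0.89 in both myeloid classes, which then held 79.7% of ligand UMIs in metastasis and 55.1% in naive (77.7% and 61.1% as reported). With doublets kept, they were 3.12 over all kept cells, 0.25 in macrophage/monocyte-like cells and 1.498 in both classes, with 73.9% in metastasis. At resolution 0.5 they were 0.59 and 1.07 in macrophage/monocyte-like cells and in both classes, with 88.4% and 77.2%, and the receptors summed to 0.39 in both classes (2.23 as reported). At resolution 2 they were 1.28 in microglia-like cells, 0.26 in macrophage/monocyte-like cells and 1.05 in both, with 68.9% in metastasis. With chemokine genes used in clustering they were 0.76, 0.15 and 1.04 in the same order, with receptors at 0.16 and 85.6% and 75.6% of ligand UMIs; Ccr2 in both classes was then at -0.062 (3.37 as reported). With each cell named from its marker counts they were 1.14, 0.37 and 1.07, with receptors at 0.75 and 79.4% and 72.8%; Ccl12 in mural-like cells was then at -0.14 (2.74 as reported). With each cell weighted equally, all kept cells gave 2.54 and the myeloid share of metastasis was 68.3%. With free RNA subtracted, the shares were 84.5% and 66.2%, and all kept cells gave no value. With cluster 0 added, both classes gave 1.07, the receptors 0.40 and the shares 88.4% and 77.2%. Without the cell with the most UMIs of the gene, Ccl3 in mural-like cells was at 0.62 (-1.91 as reported). The genes at least 2-fold higher in microglia-like cells numbered 252, against 76 with at least 50 UMIs and 1300 with at least 1 UMI in each library. The causes of these changes were not tested. Of 406 values of single members under these alternatives, 336 stayed within counting error, 67 moved and 3 changed sign from a reported ratio of at least 2-fold. Sign changes of smaller ratios were not counted apart. With free RNA subtracted only 22 values were obtained, since all kept cells were left out, as were ratios where nothing remained of a level. No paired analysis was possible because each group is 1 library. Members with under 20 UMIs in a class, the receptors above all, are limited by depth.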
